A study of Mus musculus with 55 samples.

Results

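The data described here are 33 of the 55 samples of the series: 7 knockout and 26 wild-type pyramidal neurons of the mouse prefrontal cortex that the labels call D2 cells. They were chosen by their cell type labels, and all 33 had passed quality control. Each sample is the cytosol of 1 neuron, drawn into a patch pipette and sequenced from total RNA. The knockout cells carry the genotype Fmr1-/y, a loss-of-function allele of the X-linked gene in a male, and all 7 came from mice of 32 days. The wild-type cells are labelled only as without a knockout; their strain is not given, and they came from mice of 29 to 35 days, with 2 cells at 32 days. No promoter or Cre line is named, the side label is the same for all 33 cells and unexplained, and the way D1 and D2 cells were recognised is also not given in the sources used here. Since animals are not named, each genotype was treated as 1 sample: no test was made, and every spread below is between cells.

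Fmr1 encodes FMRP, an RNA-binding protein that sits on the coding sequence of many synaptic messages and slows their translation. Its loss causes fragile X syndrome, in which synthesis of synaptic proteins downstream of group I metabotropic glutamate receptors is thought to be exaggerated. In prefrontal cortex, the neurons called D2 are commonly layer 5 pyramidal cells that project to the brainstem and thalamus. FMRP acts mainly on translation, so a change of mRNA level is a readout one step removed from its best-known function.

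Total counts ranged from 2764998 to 9680476 in knockout cells (median 5712484) and from 260943 to 7371668 in wild-type cells. Genes with at least 1 read numbered 2904 to 8574 in knockout cells (median 6706) and 1673 to 9938 in wild-type cells (median 4990). Cells with a read in at least 4000 genes are called gene-rich; they are 6 of 7 knockout and 13 of 26 wild-type cells, and the remaining knockout cell, number 5, had 2904 genes. Values are CPM, in which every cell is brought to the same total, and a difference is the knockout mean minus the wild-type mean of log2(CPM + 1). The median difference over the 11222 measured genes was 0.56 over all cells but -0.39 over gene-rich cells. Each difference below is therefore relative to that median, and is given first over all cells and then over gene-rich cells. In this text a gene is called higher or lower where both relative differences pass 1 log2 unit; 1527 genes were higher (13.6% of those measured) and 1502 lower (13.4%). These shares describe a size, not a test, and they are the background for every count of list members that follows. They varied with level. Among genes at a mean of 1 to 10 CPM 4.43% were higher and 9.54% lower, with medians of -0.47 and 0.08. At 100 to 300 CPM 18.3% were higher and 8.72% lower, with medians of 0.55 and 0.08. From 300 CPM the shares were 10.4% and 4.12%, with medians of 0.50 and 0.39. The lists below were not compared within classes of level. Had only all cells been used, 2341 genes would have been past the fold upward and 2143 downward. Counts of list members rest on few cells. Of 80 such counts, from 40 lists in each direction, 57 moved by over 1.5 times when some 1 knockout cell was left out. Of the 21 counts of at least 5 members 16 did. For many of the lists described, but not all, cells that moved a count are named, so a count without such a note need not be steady.

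The promoters of 3 genes whose levels carry the results are given next, from 100 bases before to 20 bases after the RefSeq start on build GRCm38.p6, written 5′ to 3′ on the gene's strand. The first is that of the targeted gene, Fmr1 (chrX:68678441-68678560, plus strand), with a match to the NRF1 motif, searched with exactly these letters, in capitals. The others are the leading gene of the comparison, Mrpl57 (chr14:57826139-57826258, plus strand), and a leading gene of the respiratory chain, Sdhd (chr9:50603830-50603949, minus strand), with a match to the ETS motif CCGGAAG in capitals; both motifs were searched on both strands, and that of Sdhd reads on the opposite strand.
Fmr1: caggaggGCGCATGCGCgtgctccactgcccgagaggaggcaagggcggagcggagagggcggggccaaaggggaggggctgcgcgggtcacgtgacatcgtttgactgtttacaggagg
Mrpl57: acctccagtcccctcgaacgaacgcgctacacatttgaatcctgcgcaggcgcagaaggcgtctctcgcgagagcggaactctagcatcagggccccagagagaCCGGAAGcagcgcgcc
Sdhd: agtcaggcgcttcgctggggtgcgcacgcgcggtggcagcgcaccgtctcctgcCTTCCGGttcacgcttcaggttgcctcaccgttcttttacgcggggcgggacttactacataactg
A promoter was found by symbol for 8505 of the 11222 measured genes. The NRF1 letters were in 2.27% of these windows and the ETS letters in 18.8%. The 2 motifs do not overlap each other, and a match is a description of letters only. The 3 windows shown are those with a match. Those of Rpl7a, Rps3, Mrps11 and Ndufs8, also among the genes described below, were searched as well and held neither motif.

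Not 1 read of Fmr1 was counted in the 7 knockout cells, a result that allows up to 41% of such cells to hold one (exact 95% Clopper-Pearson interval, counting error only). Among wild-type cells, 13 of 26 had a read (50%, interval 29.9% to 70.1%), with a median of 0.748 CPM and a highest value of 273 CPM. In gene-rich wild-type cells 10 of 13 had a read, at a median of 35.7 CPM. Summed over wild-type cells Fmr1 stood at 62.8 CPM, at least 882-fold higher than a floor of 3 counts over the summed knockout total. No knockout cell thus held an Fmr1 read, while 13 wild-type cells also had none. Both paralogs, which bind RNA with the same kinds of domains, were read in both genotypes: Fxr1 in 3 of 7 and 15 of 26 cells (relative difference -0.22 and -0.10), and Fxr2 in 6 of 7 and 14 of 26 cells (1.83 and 0.09). Neither was past the fold in both comparisons.

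Cell identity was checked on marker lists. Slc17a7, the vesicular glutamate transporter of cortical pyramidal cells, was read in all 33 cells, at 308 ± 192 CPM in knockout (SD, n = 7 cells) and 496 ± 497 CPM in wild-type cells (SD, n = 26 cells). Camk2a, a kinase abundant in these cells, was likewise read in all of them, at 269 ± 147 CPM and 197 ± 158 CPM. Of the dopamine receptors, Drd2 had no read in any of the 33 cells, nor had Drd3 or Drd4, so the D2 label is not visible as Drd2 mRNA here. Drd1 was read in 3 of 7 knockout cells (0, 0 and 106 CPM as lowest, median and highest) and in 2 of 26 wild-type cells, a difference past the fold (1.69 and 1.72). Over gene-rich cells it rests on reads in 2 of 6 knockout and 1 of 13 wild-type cells. Against wild-type cells of 31 and 32 days the relative difference was 0.31. Leaving out 1 knockout cell or 1 wild-type age gave 0.71 to 2.26. Drd5 was read in 2 of 7 knockout and 18 of 26 wild-type cells at low level, but 1531 of its exon bases lie opposite another gene, and strand-specific counting is not stated. A Y-linked transcript was read in all 6 gene-rich knockout and all 13 gene-rich wild-type cells.

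**Figure D1:**
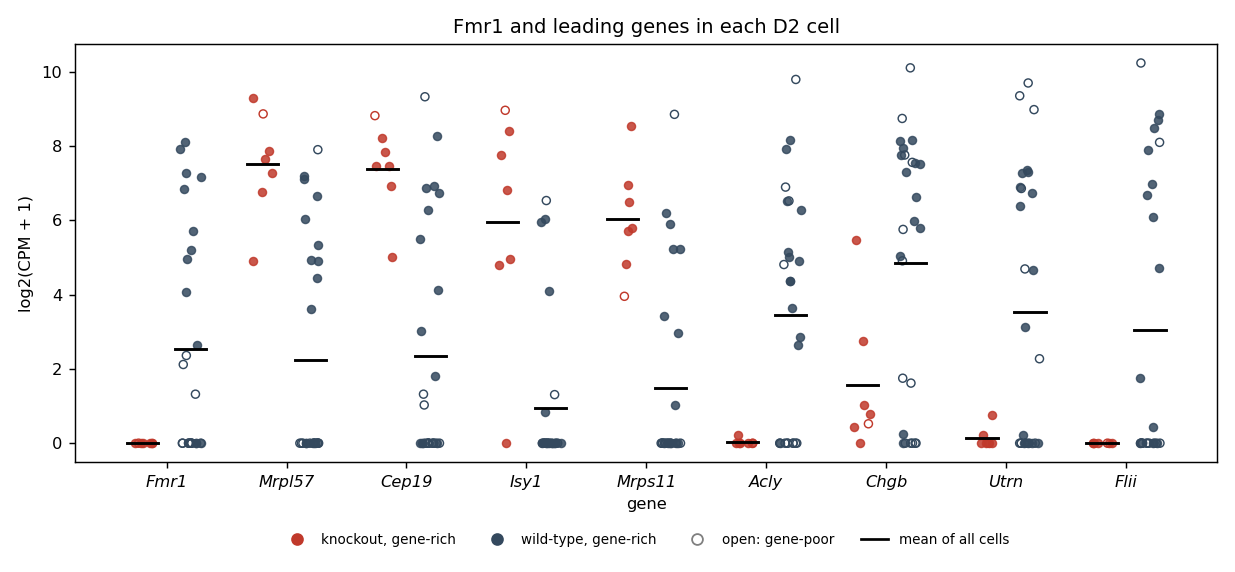
Level of Fmr1, of the 4 genes leading the higher list and of the 4 leading the lower list in each D2 cell, as log2(CPM + 1) on the vertical axis; red points are knockout cells, dark points wild-type cells, open points cells with a read in fewer than 4000 genes, and the bar is the mean of all cells of a genotype. Fmr1 lies at 0 in all 7 knockout cells, and Mrpl57 and Cep19 are above 0 in all 7.

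Genes were named by a rule of size and steadiness: the smallest relative difference over 17 comparisons (all cells, gene-rich cells, wild-type cells of 31 and 32 days, and each knockout cell or each wild-type age left out) had to be largest. Of 7928 genes abundant enough to qualify, 4002 kept 1 sign in all 17 comparisons, 2456 of them higher and 1546 lower in knockout cells. Since these genes were picked for their difference, their values are a description. The first genes outside the 12 per direction were Dffa, with a score of 3.08 against 3.11 for the last one taken, and Pttg1ip, with -2.66 against -2.68.

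The 12 genes named as higher include 2 mitochondrial ribosomal proteins, a spliceosome component and a proteasome chaperone. Mrpl57, a protein of the large mitochondrial ribosomal subunit, stood lowest, median and highest at 28.8, 200 and 629 CPM in knockout cells, against 0, 0 and 238 CPM in wild-type cells and 0, 29.1 and 145 CPM in gene-rich wild-type cells. Every knockout cell exceeded the wild-type median, but the ranges overlapped, and 1 wild-type cell exceeded the knockout median. The relative difference was 4.71 over all cells and 3.81 over gene-rich cells. Mrps11, of the small mitochondrial subunit, had 14.5, 54.3 and 367 CPM in knockout cells and a wild-type median of 0 with a highest value of 461 CPM (3.98 and 4.47); 173 of its exon bases lie opposite another gene. All 6 gene-rich knockout cells were above the gene-rich wild-type median of 1.04 CPM.

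Cep19, a centrosomal protein, had 31.2, 175 and 450 CPM in knockout cells against a wild-type median of 0 and a highest value of 640 CPM (4.47 and 3.73). Isy1, a spliceosome component, had 0, 112 and 497 CPM against at most 91.5 CPM in any wild-type cell (4.44 and 4.55). The knockout median of Isy1 thus lay above all 26 wild-type cells, though 1 knockout cell had no read; 747 of its exon bases are shared with another gene on the same strand, so its reads are uncertain. Zfp938, a zinc finger protein, showed the same layout, with 0, 182 and 297 CPM in knockout cells and at most 155 CPM in wild-type cells (3.91 and 4.72). Lgi2, a secreted leucine-rich repeat protein, had 0, 44.4 and 122 CPM against at most 35.6 CPM (3.60 and 4.93). For both genes, too, no wild-type cell reached the knockout median.

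Pomp, the chaperone that assembles the proteasome core, had 35.2, 292 and 1351 CPM in knockout cells and a gene-rich wild-type median of 72.9 CPM with a highest value of 162 CPM (4.14 and 3.16). Ddx3x, an X-linked RNA helicase that helps translation start, had 13.1, 102 and 414 CPM against a gene-rich wild-type median of 53.4 CPM and a highest value of 559 CPM (3.60 and 3.17). Rab12, a small GTPase of endosomal traffic, had 44.5, 110 and 735 CPM against 0, 1.93 and 207 CPM in gene-rich wild-type cells (4.01 and 4.06). In each of these 3 genes all 7 knockout cells were above the median of all wild-type cells. That median was 0.520, 0.0865 and 1.57 CPM for Pomp, Ddx3x and Rab12. In the same order, 5, 5 and 6 of 6 gene-rich knockout cells were above the gene-rich wild-type median. Of all wild-type cells, 1, 4 and 5 were above the knockout median of Pomp, Ddx3x and Rab12. The others were Hddc2 (4.22 and 3.89; 113 exon bases opposite another gene), Dus3l, a tRNA dihydrouridine synthase (4.16 and 3.31), and Blcap (3.77 and 3.99). In D1 cells, whose own knockout and wild-type groups are labelled in the same way, the relative differences were 2.46 and 2.06 for Rab12 and 1.65 and 2.08 for Ddx3x, but -1.46 and -1.59 for Mrps11 and -1.6 and -3.57 for Pomp. Of the 12 genes, 5 had the same sign in D1 cells in both comparisons and 2 were past the fold there. The same share over all measured genes is not given here, so no agreement with D1 cells is read from these counts. Whether the D1 and D2 differences differ was not tested.

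The 12 genes named as lower include enzymes of acetyl-CoA and pentose phosphate metabolism, a granule protein, cytoskeletal and exocytic proteins and a potassium channel subunit. Acly, the cytosolic enzyme that makes acetyl-CoA from citrate for lipid synthesis and histone acetylation, was at 0 in 6 knockout cells and at 0.175 CPM in the other. Wild-type cells had a median of 15.6 CPM and a highest value of 885 CPM, and 12 of 13 gene-rich wild-type cells had a read. The relative difference was -3.98 over all cells and -4.33 over gene-rich cells, and in D1 cells -3.32 and -4.79. Chgb, a chromogranin of dense-core secretory granules, had 0, 0.723 and 43.7 CPM in knockout cells against a gene-rich wild-type median of 157 CPM and a highest value of 283 CPM (-3.84 and -3.86). No knockout cell reached the wild-type median of either gene, and 19 of 26 wild-type cells were above the knockout median of Chgb.

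Flii, an actin-binding protein of the gelsolin family, had no knockout read, against 12 of 26 wild-type cells and a gene-rich wild-type median of 67.3 CPM (-3.60 and -4.28). Its summed wild-type level of 160 CPM was at least 2249-fold higher than the knockout floor of 3 counts over the group. Tkt, the transketolase of the pentose phosphate pathway, also had no read in knockout cells, against 14 of 26 wild-type cells (-3.06 and -3.15), a level at least 706-fold higher than that floor. For both genes 0 of 7 cells allows a share of up to 41%, so absence of expression is not shown.

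Serpine2, an extracellular inhibitor of serine proteases, had 0, 0 and 82.1 CPM in knockout cells and a gene-rich wild-type median of 263 CPM with a highest value of 794 CPM (-3.56 and -4.25). Kcng1, a silent subunit that modifies Kv2 channels, had at most 5.95 CPM in knockout cells against a gene-rich wild-type median of 166 CPM (-3.16 and -4.30), and in D1 cells it differed by -3.30 and -4.01. Exoc4, a subunit of the exocyst that tethers vesicles to the plasma membrane, had at most 0.13 CPM against a gene-rich wild-type median of 27.1 CPM (-3.41 and -4.37). The low knockout values of these 3 genes lay inside the range of wild-type cells, since each also had wild-type cells without a read. Utrn, the dystrophin paralog utrophin, differed by -3.95 and -3.29, Tmem163, a zinc transporter of synaptic vesicles, by -3.27 and -3.87, Lrrc49, of the tubulin polyglutamylase complex, by -3.40 and -3.30, and Tjap1 by -3.13 and -4.75. Hnrnpa1, a splicing factor, differed by -3.58 and -3.52; it has many near-identical processed copies in the genome, so its reads are uncertain. In D1 cells 7 of the 12 lower genes had the same sign in both comparisons and 4 were past the fold, Acly, Kcng1, Chgb (-1.83 and -1.28) and Exoc4 (-1.70 and -3.19). For these counts, too, the share over all measured genes is not given, and no agreement is read from them. Hnrnpa1 (0.67 and 0.35), Lrrc49 (0.90 and 0.42) and Tjap1 (0.15 and 0.44) had the opposite sign there, and Serpine2 and Tkt had different signs in the 2 comparisons. Against wild-type cells of 31 and 32 days alone, nearest in age, the 12 lower genes ran from -6.22 (Flii) to -2.69 (Exoc4). This comparison is 1 of the 17 of the naming rule, so the choice of genes bounded the range. It rests on 5 wild-type cells, with 1 gene-rich cell at each of the ages.

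**Figure D2:**
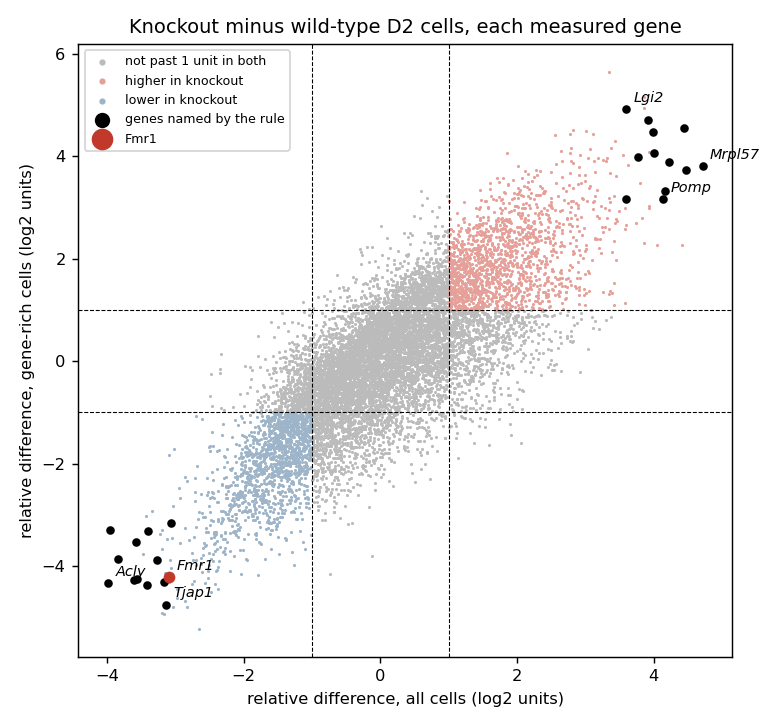
Relative difference of each of 11222 measured genes, knockout minus wild-type D2 cells in log2 units, over all cells (horizontal axis) and over gene-rich cells (vertical axis); dashed lines mark 1 log2 unit, black points the genes named by the rule, and the large red point Fmr1. Fmr1 lies at -3.09 and -4.22, and Mrpl57 at 4.71 and 3.81.

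Many genes of the machinery that makes proteins and ATP were higher in knockout cells. Cytosolic ribosomal proteins, which build the ribosomes that FMRP restrains, were higher in 38 of 83 measured genes (45.8%, against 13.6% of all genes) and lower in 0, with medians of 0.88 and 1.5 against 0 for all genes. Over gene-rich cells 80 of the 83 were above the median of all genes. Without knockout cell 2, 29 were higher and the medians were 0.47 and 1.12. Rps3 had 101, 129 and 882 CPM in gene-rich knockout cells and 0, 50.7 and 217 CPM in gene-rich wild-type cells (2.47 and 3.06). Every gene-rich knockout cell thus lay above the gene-rich wild-type median of Rps3, within overlapping ranges. Rpl7a (2.58 and 2.63) and Rps15 (2.24 and 2.44) were also among the higher members. Ribosomal protein genes have many near-identical pseudogenes, so single members are uncertain.

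Mitochondrial ribosomal proteins, which translate the mitochondrial genome, were higher in 28 of 76 genes (36.8%) and lower in 2, with medians of 0.66 and 0.94. Mrpl21 had 32.2, 131 and 263 CPM in gene-rich knockout cells and 0, 27.8 and 109 CPM in gene-rich wild-type cells (3.63 and 3.84), and Mrps5 differed by 3.06 and 4.15. Knockout cell 2 had the highest level of this list: without it 18 of 76 were higher and 4 lower, with medians of 0.29 and 0.41. Without cell 7, 5 were lower, and without cell 6, 4. Nuclear-encoded proteins of the respiratory chain and ATP synthase, with some assembly factors, were higher in 24 of 77 genes (31.2%) and lower in 0, with medians of 0.91 and 1.17. Ndufs8, of complex I, had 101, 325 and 591 CPM in gene-rich knockout cells against 0, 96.8 and 216 CPM (3.55 and 4.03). Sdhd, the membrane anchor of complex II, had 0, 282 and 626 CPM against 0, 0.311 and 397 CPM (3.18 and 3.96). Ndufs4 and Ndufa2, both of complex I, differed by 2.77 and 2.69 and by 2.57 and 2.63. Knockout cell 4 had the lowest level of the respiratory list among knockout cells: without it 49 of 77 were higher, with medians of 1.40 and 1.78. Without cell 2, 20 were higher and 2 lower, with medians of 0.56 and 0.84.

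Sums over a list, here and below, are CPM with no median difference taken off. Summed over the list, cytosolic ribosomal proteins took 4014, 11115 and 31657 CPM in gene-rich knockout cells and 3012, 5528 and 19735 CPM in gene-rich wild-type cells. The respiratory list took 7357, 24510 and 71150 CPM against 6630, 12036 and 51773 CPM. In both lists and in that of mitochondrial ribosomal proteins 5 of 6 gene-rich knockout cells were above the gene-rich wild-type median. Of the 13 gene-rich wild-type cells 1 was above the gene-rich knockout median, and the ranges overlapped. Knockout cell 2 was the highest of the gene-rich cells, and cell 4 the lowest of the gene-rich knockout cells, with wild-type cells below it. These counts hold for gene-rich cells only. Gene-poor wild-type cells reached 22566 CPM in cytosolic ribosomal proteins, 9181 CPM in mitochondrial ribosomal proteins and 43568 CPM in the respiratory list. The 15 mitochondrially encoded genes had no member past the fold in both comparisons, since their median was -0.36 over all cells but 1.6 over gene-rich cells. The mitochondrial share of all counts was 0.460% to 16.6% in gene-rich knockout cells (median 3.31%) and 0.0408% to 5.06% in gene-rich wild-type cells (median 1.09%); its part in the results for the 3 lists was not tested.

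Many of these genes have short transcripts, and short transcripts stood higher in general. Among measured genes with transcripts of at most 1000 bases, 18.9% were higher and 9.68% lower. Within that class 33 of 67 cytosolic ribosomal protein genes (49.3%), 10 of 35 mitochondrial ribosomal protein genes (28.6%) and 17 of 58 respiratory genes (29.3%) were higher, against 17.3% of the 1802 other genes. In the promoter windows shown above, the ETS letters were found for 38.7% of 62 cytosolic ribosomal protein genes, 34.3% of 67 mitochondrial ribosomal protein genes and 23.8% of 63 respiratory genes, against 18.8% of all measured genes with a promoter. They were found for 20.9% of the genes higher in knockout cells and 18.7% of those lower. The NRF1 letters were found for 7.94% of the respiratory genes, 2.31% of the higher and 1.84% of the lower genes.

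**Figure D3:**
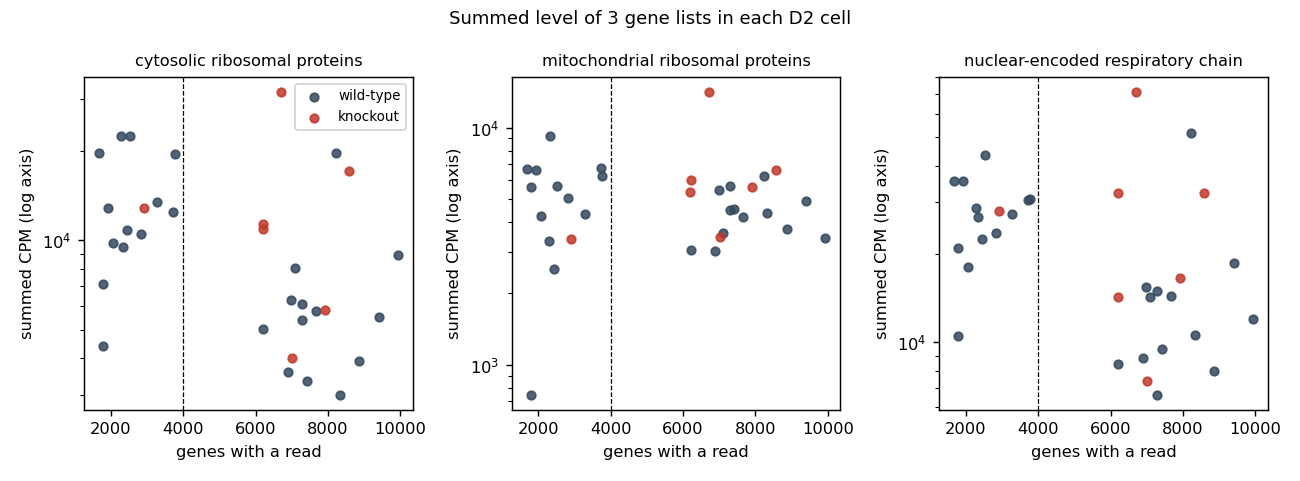
Summed CPM of cytosolic ribosomal proteins, mitochondrial ribosomal proteins and the nuclear-encoded respiratory chain (log axis) against the number of genes with a read in each D2 cell; red points are the 7 knockout and dark points the 26 wild-type cells, and the dashed line marks 4000 genes. Right of the line, knockout cell 2 stands highest in each panel, at 31657, 14099 and 71150 CPM.

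Factors of translation initiation and elongation, which load ribosomes onto mRNA and move them along it, were higher in 8 of 44 genes (18.2%) and lower in 1, with medians of 0.49 and 0.49. Eif4g1, the scaffold of the cap-binding complex, had 42.8, 164 and 335 CPM in gene-rich knockout cells against 0, 36.4 and 168 CPM in gene-rich wild-type cells (3.22 and 3.03). Eif3i, Eif2s1 and Eif3g differed by 3.03 and 3.14, 2.88 and 2.77, and 3.35 and 2.58, and the 1 lower member was Eif3d. Without knockout cell 7, 14 members were higher, and leaving out 1 knockout cell gave 0 to 3 lower.

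The proteasome list was higher in 11 of 40 genes (27.5%) and lower in 4 (10%), with medians of 0.99 and 0.56. Psmb5, a catalytic subunit, had 0, 202 and 556 CPM in gene-rich knockout cells and 0, 6.54 and 110 CPM in gene-rich wild-type cells (3.93 and 4.09). Psma7, of the core particle, differed by 2.46 and 2.61, and Psmd11, of the regulatory particle, by 2.94 and 2.82. Psmd8, also of the regulatory particle, was lower (-2.95 and -2.48), as was Psmc3ip, which is not a subunit and entered the list by its symbol. Without knockout cell 7, 17 members were higher.

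Of messages known as FMRP targets, 3 of 50 were higher (6.00%) and 5 lower (10%), both shares below those of all genes, with medians of 0.52 and -0.20. Arc, an activity-induced regulator of AMPA receptor removal, had 0, 0 and 240 CPM in knockout cells and a gene-rich wild-type median of 430 CPM with a highest value of 1223 CPM (-3.17 and -4.94). Nlgn3, an autism-linked postsynaptic adhesion molecule, had at most 45 CPM in knockout cells against a gene-rich wild-type median of 64.9 CPM (-2.45 and -3.13). Dlgap3, a scaffold of the postsynaptic density, differed by -1.56 and -2.01, and Pik3cb was also lower. Kcnc1, the Kv3.1 channel of fast-spiking cells, was higher (1.86 and 2.74), as were Huwe1 and Dlgap4. Map1b, the classical FMRP target, stood at 1131 ± 876 CPM in knockout (SD, n = 7 cells) and 857 ± 1244 CPM in wild-type cells (SD, n = 26 cells), with relative differences of 0.69 and 0.80, and Dlg4, which encodes PSD-95, at 0.29 and 1.39. Without knockout cell 2, 6 of the list were higher, without cell 1, 5, and without wild-type cells of 34 days, 1.

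FMRP's own partners, 22 measured genes, had 5 higher (22.7%) and 1 lower. Pura, an RNA-binding protein of neuronal granules, had 48.8, 291 and 1497 CPM in knockout cells against a wild-type median of 60.7 CPM (2.28 and 2.15). Mov10, a helicase that binds FMRP, differed by 2.36 and 3.39 and G3bp1, of stress granules, by 1.43 and 1.39, while Stau1, of transported RNA granules, was lower (-1.46 and -1.96). Without knockout cell 4, 8 of the list were higher and 3 lower, and without cell 2, 3 were higher.

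Group I metabotropic glutamate signalling, the pathway to which the fragile X phenotype is classically tied, had 2 of 17 genes higher and 3 lower (17.6%, against 13.4%), with medians of 0.35 and -0.41. The receptor Grm5 was read in 6 of 7 and 17 of 26 cells and differed by 0.97 and -0.99. Among the scaffolds, Homer3 had at most 0.362 CPM in knockout cells against a gene-rich wild-type median of 39.0 CPM and a highest value of 199 CPM (-3.05 and -3.46); Homer2 was lower and Homer1 differed by 0.97 and 0.00. Rgs4, which switches off Gq and Gi signals, had 0, 286 and 1607 CPM in gene-rich knockout cells against 501, 935 and 2440 CPM in gene-rich wild-type cells (-1.59 and -2.35). Downstream, Gnaq, the alpha subunit of Gq, was higher, with 83.2, 104 and 118 CPM against 0, 17 and 152 CPM (1.47 and 3.14), as was the calcium release channel Itpr1 (1.09 and 1.36). Without knockout cell 7, 1 gene of the list was lower, and without wild-type cells of 30 or of 31 days 1 was higher.

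Summed in each gene-rich cell, the list took 1999, 2753 and 3399 CPM in knockout and 3045, 4602 and 5217 CPM in wild-type cells. No gene-rich knockout cell reached the wild-type median and all 13 wild-type cells were above the knockout median, although the ranges met between 3045 and 3399 CPM. The gene-poor knockout cell 5 had 3694 CPM. The most abundant member of the list was Rgs4, at a mean of 544 CPM in gene-rich knockout and 1190 CPM in gene-rich wild-type cells.

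Receptors and channels showed single members in both directions. Of 19 genes of GABA-A receptors and GABA handling 4 were higher (21.1%) and 2 lower (10.5%). Gabra4, an alpha subunit of the GABA-A receptor, was among the higher ones (2.17 and 1.31). Without knockout cell 6, 2 of this list were higher, and leaving out 1 knockout cell gave 1 (cell 1) to 4 (cells 3 and 4) lower. Of 19 AMPA and NMDA receptor genes 2 were higher and 1 lower: Cacng2, the auxiliary subunit stargazin, had 5.19, 39.5 and 156 CPM in gene-rich knockout cells against 0, 4.13 and 32.3 CPM in gene-rich wild-type cells (1.69 and 3.14). Leaving out 1 knockout cell gave 1 (cell 1) to 4 (cells 5 and 6) higher and 0 (cells 1 and 3) to 2 (cell 6) lower members of the glutamate receptor list.

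Potassium channels were lower in 9 of 42 genes (21.4%) and higher in 3 (7.14%), with medians of -0.17 and -0.09. Beside Kcng1, Kcnj6, a G protein-gated inward rectifier, was read in 1 of 7 knockout and 12 of 26 wild-type cells (-2.53 and -4.10); Kcna4, Kcns2, Kcnip3 and Kcnn3 were also among the lower members. Kcna1, a Kv1 subunit of axons, had 9.63, 155 and 504 CPM in gene-rich knockout cells and 0, 37.3 and 358 CPM in wild-type cells (2.07 and 2.52), and Kcnip4, a partner of Kv4 channels, was also higher (1.89 and 2.56). With a pseudocount of 10 CPM 2 of the 42 were past the fold downward and 2 upward, and without knockout cell 6, 5 were higher. Among 30 sodium, HCN and calcium channel genes 4 were lower, among them Trpc4 (-1.82 and -3.39), Cacna1g (-1.45 and -2.96) and Trpc5, and 2 higher, Nalcn (1.93 and 2.32) and Cacna1d (1.70 and 1.66). Without knockout cell 6, or without wild-type cells of 32 days, 2 of these were lower, and without those of 30 days 1 was higher.

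The presynaptic list had 3 of 30 genes higher and 1 lower, and the postsynaptic list 5 of 31 higher and 4 lower. Syn1, a synaptic vesicle phosphoprotein, was read in all 33 cells and had 7.79, 68.8 and 524 CPM in gene-rich knockout cells against 133, 241 and 946 CPM in gene-rich wild-type cells (-1.62 and -1.89), while its paralog Syn2 was higher (1.35 and 1.5). Erc2, an active zone scaffold, was higher too (2.27 and 3.24). Lrrtm1 and Nlgn1, postsynaptic adhesion molecules, were lower (-1.96 and -3.87; -1.33 and -2.29). Without knockout cell 2, 6 presynaptic genes were higher, and without cell 1, 3 or 4, 5. Without cell 7, 2 postsynaptic genes were higher, without cell 1, 3, and without wild-type cells of 29 days, 1.

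**Figure D4:**
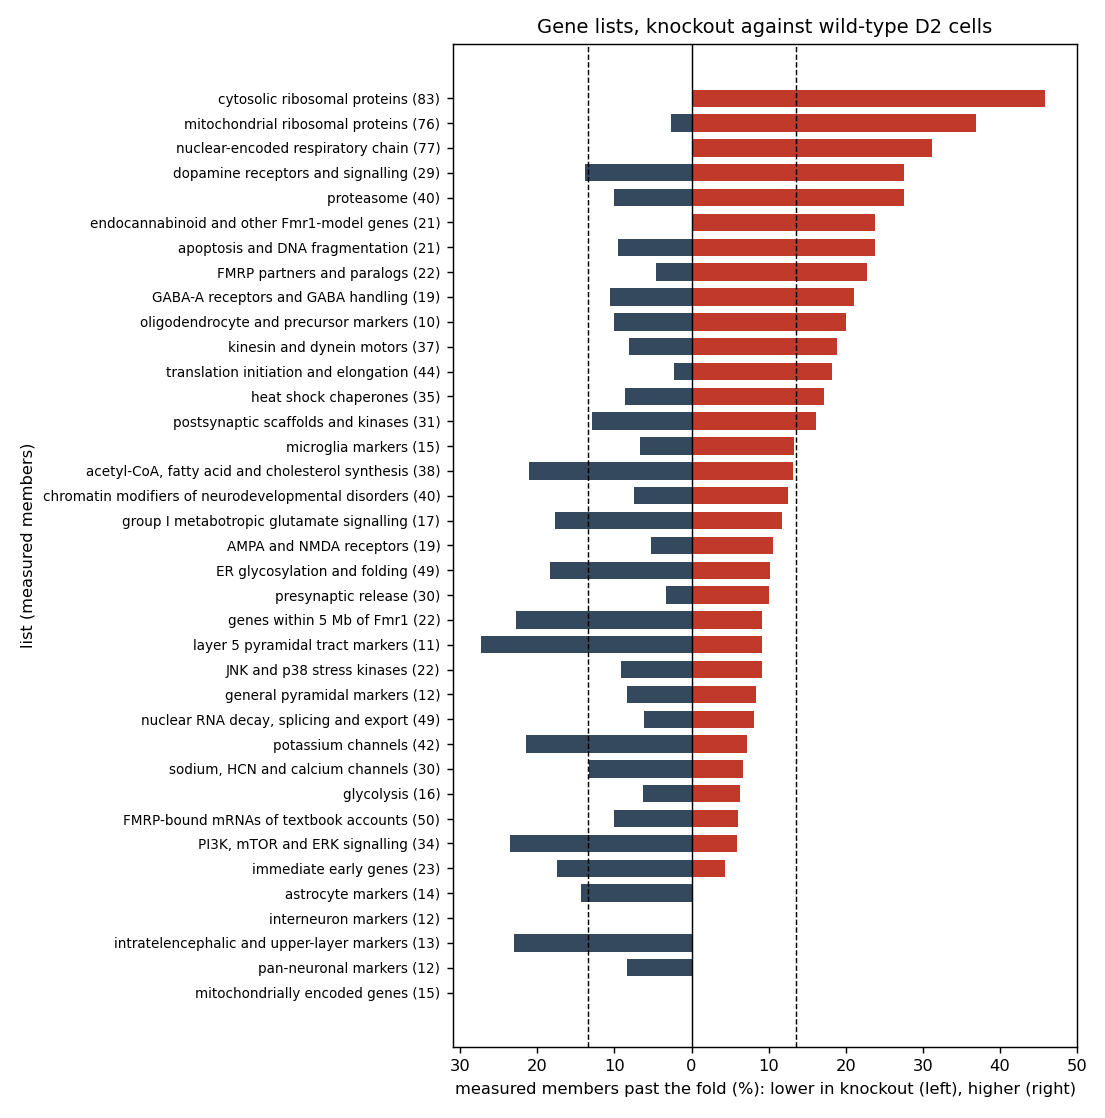
Share of measured members past the fold for each gene list with at least 10 measured genes, lower in knockout cells to the left and higher to the right, in percent; the number of measured members is in parentheses and dashed lines mark the shares over all measured genes, 13.6% and 13.4%. The bars for cytosolic ribosomal proteins, mitochondrial ribosomal proteins and the respiratory chain reach 45.8%, 36.8% and 31.2% to the right.

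PI3K, mTOR and ERK signalling, the kinase routes that drive translation at synapses, was lower in 8 of 34 genes (23.5%) and higher in 2 (5.88%), with medians of -0.22 and -0.38. Mknk1, which phosphorylates eIF4E, had no read in knockout cells and was read in 8 of 26 wild-type cells (-2.03 and -2.21). Mknk2, Pik3ca, Pik3cb, Pik3r1, Rptor and Rictor were also lower, and Akt1 was 1 of the 2 higher ones (1.72 and 2.28). Without knockout cell 2 the list was balanced, with 6 higher and 6 lower (17.6% each). Without knockout cell 4, 5 genes were lower and 4 higher, and without cell 6, 5 lower. Without a filter beyond 1 read 3 were lower and 3 higher, and with a pseudocount of 10 CPM 1 was lower.

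Acetyl-CoA, fatty acid and cholesterol synthesis was lower in 8 of 38 genes (21.1%) and higher in 5 (13.2%). Beside Acly, the sterol enzymes Ebp (-2.58 and -3.55) and Lss (-2.15 and -2.66) had no read in knockout cells and were each read in 10 of 26 wild-type cells, and Acss2, which makes acetyl-CoA from acetate, differed by -1.62 and -2.05. Scd2, Fasn, Fads1, Pmvk and Sqle were higher, so that members of 1 route stood on both sides. Summed in gene-rich cells the list took 560, 2300 and 2451 CPM in knockout and 1828, 3066 and 3849 CPM in wild-type cells, with no knockout cell above the wild-type median. Without knockout cell 2, or without wild-type cells of 29 or of 32 days, 3 were higher.

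Glycosylation and folding in the endoplasmic reticulum was lower in 9 of 49 genes (18.4%) and higher in 5 (10.2%), with medians of 0.13 and -0.73. Disulfide isomerases led: Pdia6 had 0, 27.6 and 319 CPM in gene-rich knockout cells against 1.40, 288 and 1470 CPM (-2.42 and -3.54), and P4hb at most 4.65 CPM against a median of 87.9 CPM (-2.59 and -3.78). Dnajb9, a stress-induced cochaperone, differed by -2.42 and -3.71, and Sec61b, of the translocation pore, was higher (2.44 and 2.96). The list summed to 2267, 4220 and 6079 CPM in gene-rich knockout and 3844, 7165 and 13550 CPM in gene-rich wild-type cells, again with no knockout cell above the wild-type median. Without knockout cell 3, 14 were lower, without cell 2 or 4, 9 were higher, and without cell 6, 8, so the margin between lower and higher members depends on single cells.

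Immediate early genes, which neurons induce when active, were lower in 4 of 23 (17.4%) and higher in 1, with medians of -0.16 and -0.25. Beside Arc, Dusp1, a phosphatase that turns off MAP kinases, had 0, 17.5 and 648 CPM in gene-rich knockout cells against 0, 334 and 1058 CPM (-1.56 and -3.14); Fosb and Nr4a1 were also lower and Ier5 higher. Their sum was 1041, 1651 and 4392 CPM against 1616, 3593 and 6744 CPM, with 1 of 6 knockout cells above the wild-type median. Without knockout cell 1 or cell 4, 2 were lower and 2 higher, and without cell 7, 3 were higher.

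The dopamine list was higher in 8 of 29 genes (27.6%) and lower in 4 (13.8%), with medians of 0.24 and -0.10. Gnai1, the inhibitory G protein through which D2 receptors act, had 113, 411 and 849 CPM in gene-rich knockout cells against 0, 152 and 663 CPM in gene-rich wild-type cells (2.77 and 2.54). Gnai2, Gnao1, Rgs9, Pde1b and the protein kinase A subunits Prkar2a and Prkar2b were higher as well, and so was Drd1, described above. Ppp1r1b, which encodes DARPP-32, had at most 3.15 CPM in knockout cells and up to 823 CPM in wild-type cells (-2.29 and -1.85), and Adcy5 and Maob were lower. Without knockout cell 5, 5 genes were higher.

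**Figure D5:**
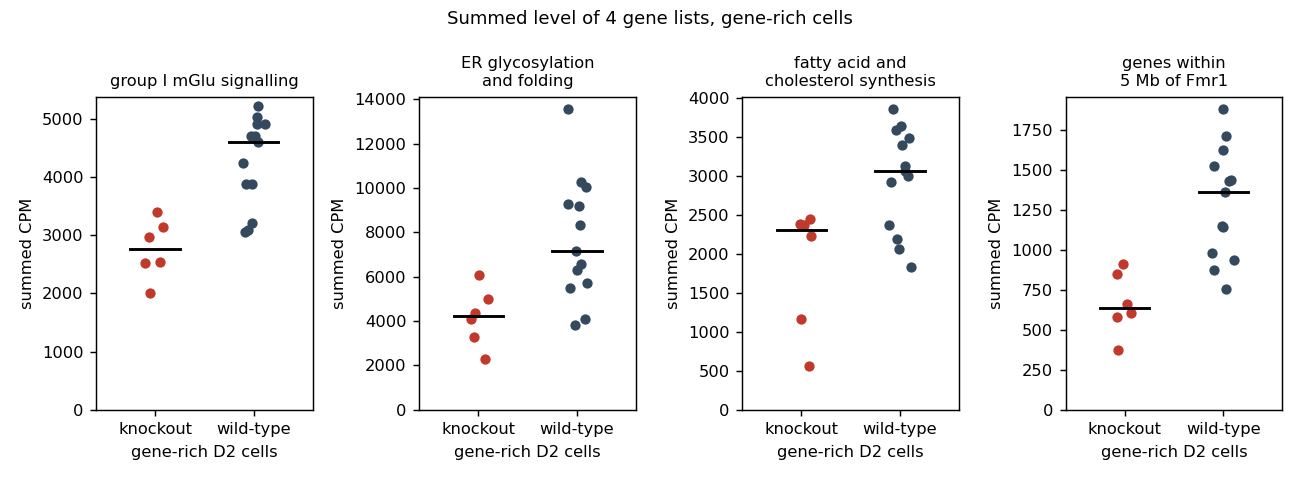
Summed CPM of group I metabotropic glutamate signalling, endoplasmic reticulum folding, fatty acid and cholesterol synthesis and the genes within 5 Mb of Fmr1 in each gene-rich D2 cell, 6 knockout (red) and 13 wild-type (dark); the bar is the median. No knockout cell lies above the wild-type median in any of the 4 panels. The panels are 4 of the 40 lists, and how many other lists share this layout is not given here. Sums are CPM with no median difference taken off, and over gene-rich cells that difference was -0.39 log2 units.

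Markers of projection class also held genes past the fold. Among layer 5 pyramidal tract markers 3 of 11 genes were lower and 1 higher, with medians of -0.06 and -1.32: Bcl6 (-2.05 and -2.53), Pou3f1 (-1.85 and -2.52) and Npnt (-1.43 and -1.5) against Ldb2 (2.61 and 1.61). Their summed level, 419 to 3505 CPM in gene-rich knockout and 582 to 2841 CPM in gene-rich wild-type cells, overlapped throughout. Intratelencephalic and upper-layer markers were lower in 3 of 13 (Stard8, Lamp5 and Cux1) and higher in 0; without knockout cell 2, 1 was lower and 1 higher. The part of a different mix of projection classes in the results was not tested.

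Markers of other cell types were read in both genotypes. For scale, the general pyramidal list summed to 1991 to 5674 CPM in gene-rich knockout and 2017 to 6060 CPM in gene-rich wild-type cells, and in some cells the lists that follow reached these levels. Interneuron markers had 0 of 12 past the fold in either direction, and their sum ran from 203 to 4860 CPM in gene-rich knockout and from 77.8 to 1451 CPM in gene-rich wild-type cells, led by Cck, a peptide that pyramidal cells also make, at means of 1676 and 389 CPM. Astrocyte markers had 0 of 14 higher and 2 lower, Clu (-3.43 and -3.01) and Glul (-2.61 and -1.13), with sums of 386 to 2356 and 172 to 3146 CPM. Microglial markers had 2 of 15 higher (Csf1r among them) and 1 lower (C1qc), with sums of 39.6 to 3808 and 8.31 to 6150 CPM. Oligodendrocyte markers had 2 of 10 higher, the myelin genes Mbp (1.66 and 2.17) and Mobp (1.04 and 1.20), and Olig1 lower, with sums of 99.6 to 1935 and 25.7 to 2915 CPM. Leaving out 1 knockout cell gave up to 3 interneuron markers higher, 0 to 2 microglial markers higher and 1 to 5 lower (5 without cell 1), and 0 to 2 oligodendrocyte markers higher (0 without cell 5). In all 4 lists the ranges of the genotypes overlapped, and the part of RNA from other cells in the results was not tested.

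Because all knockout cells are of 1 age, the knockout mean was set beside the means of the 7 wild-type ages, in gene-rich cells. Of all measured genes the knockout mean was above every age for 3.54% and below every age for 4.46%. The genes named above were chosen over comparisons that include these cells and each age left out, so nothing is read from their place among the ages: 8 of the 12 higher ones, Mrpl57 and Pomp among them, were above every age, and Acly, Chgb and Serpine2 were below every age. For cytosolic ribosomal proteins the list mean of 6.21 on the log2(CPM + 1) scale lay within the wild-type ages (4.10 to 6.72), with 9 of 83 members above all ages, and the mitochondrial ribosomal and respiratory means lay within them too. Of the 40 lists, 7 had a knockout mean below every age and 0 above. They were FMRP-bound messages (5.78 against 6.32 to 6.82, with 8 of 50 members below all ages), postsynaptic scaffolds (5.29 against 5.69 to 6.18), layer 5 markers (4.14 against 4.55 to 6.48), potassium channels (3.13 against 3.46 to 4.60), intratelencephalic markers, acetyl-CoA and lipid synthesis, and RNA decay and splicing. These means hold the median difference over all genes, which was -0.39 between the gene-rich groups. With it taken off, 3 lists were still below every age, FMRP-bound messages at 6.17, postsynaptic scaffolds at 5.68 and layer 5 markers at 4.53. Potassium channels were then inside at 3.52, and 3 lists were above every age. These 3 were mitochondrial ribosomal proteins, mitochondrially encoded genes, and endocannabinoid and other genes studied in Fmr1 models. Of the 7 ages 4 hold 1 gene-rich cell each; age and genotype cannot be told apart further.

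The neighbours of Fmr1 were counted because the strain of the wild-type mice is not given. Of 22 measured genes within 5 Mb of Fmr1, 5 were lower (22.7%) and 2 higher (9.09%), with medians of -0.19 and -0.32. Mtm1, a phosphoinositide phosphatase, was read in 1 of 7 knockout and 10 of 26 wild-type cells (-1.81 and -2.32), and Atp2b3, a calcium pump, in 2 of 7 and 11 of 26 (-1.81 and -2.60); Vma21, Slitrk2 and Slitrk4 were also lower, Mamld1 (2.68 and 3.38) and Cetn2 (2.41 and 3.33) higher. Without knockout cell 1, 3 were lower and 4 higher, so that the larger number of lower genes rests on that cell; without wild-type cells of 29 days 4 were higher. Their sum was 376, 637 and 912 CPM in gene-rich knockout against 753, 1363 and 1885 CPM in gene-rich wild-type cells, nearly apart, but 2106 CPM in the gene-poor knockout cell 5. Over the whole X chromosome, 12.9% of 356 genes were higher and 16.3% lower, against 13.7% and 13.3% on autosomes.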

How the data were processed

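Cytosol from the patch pipette was made into Nextera XT libraries, per the labels. The submitters' processing notes name STAR, featureCounts, Trimmomatic and build GRCm38, with roles, settings and versions not given in the sources used here. As deposited, the counts are whole reads for each of 22800 gene symbols. The normalized signal table deposited by the authors holds those counts times 1 factor per cell (0.423 to 51.5) and was used as an alternative. Both held 2 columns that match no sample, which were not used. Header names differed from the labels in 0 cells, and the highest Spearman correlation between 2 cells was 0.518 over measured genes.

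CPM used each cell's total over genes. Measured genes had a mean of at least 1 CPM over the 33 cells and were read in 10% or more of them. A pseudocount of 1 CPM was added before log2. Cells were grouped by their labels, each genotype was 1 sample, and no p-value was computed. Intervals are exact at 95%; they and the floor of 3 counts over a group cover counting error only, since reads are not molecules. Genes named reached a mean of 10 CPM and were read in 33% of cells in 1 genotype, mitochondrial and predicted genes left out; the 12 per direction with the largest smallest difference over 17 comparisons were taken, plus Fmr1, Fxr1, Fxr2, the dopamine receptors and the leading members of lists. The members and the 40 gene lists were chosen with earlier results of these data known. Age ranges in gene-rich cells, list means with the median difference taken off, sums per cell, transcripts of at most 1000 bases and list counts by setting were added after seeing the data. Positions and exon overlaps came from GENCODE vM21 (GRCm38) and promoters from RefSeq (GRCm38.p6). The procedure was tested on simulated data. Python 3.11.15, numpy 2.4.6, pandas 2.3.3, scipy 1.17.1 and matplotlib 3.10.9 were used, with TMM factors from edgeR 4.0.16 in R 4.3.3. Some members counted in the gene lists are not reported here by name.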

Additional observations from a re-analysis of the deposited data

Results flagged for a closer look

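Among the 7 knockout cells, 29 measures were checked for a cell far from the others. The gap to the cell's nearest neighbour was divided by the whole range (Dixon's critical value 0.568), and 11 passed. That value is meant for normally distributed measures. Many of those checked are genes at 0 in most knockout cells, so no chance rate is set beside the count. Knockout cell 5 had 2904 genes with a read, against 6194 in the next cell. On the log2(CPM + 1) scale, 2 genes of the higher list had 1 low cell: Hddc2 was at 0 in cell 7, with the next cell at 6.05, and Lgi2 at 0 in cell 5, with the next at 4.74. In the lower list 8 genes had 1 cell above the rest: Lrrc49 at 6.47 and Tjap1 at 3.29 in cell 1, Kcng1 at 2.80 in cell 1, Acly at 0.23 in cell 1, Hnrnpa1 at 3.62 in cell 2, Tmem163 at 2.83 and Utrn at 0.75 in cell 4, and Exoc4 at 0.18 in cell 6. In these 8 genes the other knockout cells were at or near 0, so that any cell with a read stands apart.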

How the results depend on the processing

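The count of higher genes (1527) was within 1.5 times of itself in 23 of 24 alternatives and that of lower genes (1502) in 21. A pseudocount of 10 CPM gave 637 higher and 335 lower genes; without a filter beyond 1 read 995 were lower (1780 higher), and from summed counts 2635 were lower (2219 higher). Leaving out 1 knockout cell gave 1601 to 1833 higher and 1559 to 1712 lower genes; leaving out 1 wild-type age gave 1465 to 1624 and 1470 to 1631. The cause of these shifts was not tested. Fmr1 was read in 76.9% of gene-rich wild-type cells instead of 50%. All 25 named genes, Fmr1 included, kept their sign in all 24 alternatives. For the genes named by the rule this was largely set in advance. The rule already required 1 sign without each knockout cell or wild-type age, and against 31 and 32 days. Gene-rich cuts of 3000 and 5000 genes leave the all-cell value unchanged. Of the 600 values 133 were counted as moved, by at least the SD between knockout cells, as were 5 of 960 list medians. Fmr1, Flii and Tkt have a knockout SD of 0, so all 24 alternatives of each were counted as moved, whatever their size. Among the lists, cytosolic ribosomal proteins had 26 to 62 higher members, mitochondrial ribosomal proteins 15 to 36 and the respiratory chain 19 to 59. The median difference over all genes ran from -0.51 (summed counts) to 0.86. No paired analysis was possible because replicate numbers are not in the labels. With a pseudocount of 10 CPM 52 of 80 list counts moved by over 1.5 times, and without some 1 wild-type age 40. The number of knockout cells limits the genes without a read, since 0 of 7 allows a share of up to 41%. Thinning to an equal 500000 counts per cell cannot add reads, so for Flii, Tkt and Fmr1 the knockout share was bound to stay at 0 of 7. At that depth they were read in 10, 11 and 12 of 24 wild-type cells. No spread between animals can be estimated.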

Other observations

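Further gene groups held single members past the fold. Kinesin and dynein motors, which carry cargo along microtubules, were higher in 7 of 37 genes (18.9%) and lower in 3 (8.11%). Dync1li1, a light intermediate chain of dynein, had 10.8, 72.3 and 314 CPM in gene-rich knockout cells and 0, 0.701 and 302 CPM in gene-rich wild-type cells (3.06 and 3.42), and Kif3a, of the kinesin-2 motor, was lower (-1.37 and -1.84). Without knockout cell 6, or without wild-type cells of 30 days, 4 motors were higher. Heat shock chaperones were higher in 6 of 35 genes, among them the mitochondrial Hspa9, with 94.1, 134 and 169 CPM against 0, 3.76 and 866 CPM (2.77 and 4.06), and the chaperonin subunits Cct2, Cct3 and Cct4. Without knockout cell 7, 12 were higher.

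Genes of apoptosis and DNA fragmentation were higher in 5 of 21 (23.8%) and lower in 2. Dffa, which holds the caspase-activated nuclease in check, had 21, 132 and 439 CPM in gene-rich knockout cells against 0, 21.3 and 332 CPM (3.44 and 3.61), and the survival factors Bcl2l1 (3.20 and 2.80) and Birc6 (4.41 and 2.26) were higher with it, while Bbc3, a proapoptotic protein, was lower (-1.49 and -1.61). Without knockout cell 2 or cell 6, 3 of the list were higher. Of the stress kinases, Mapk9, which encodes JNK2, was higher (3.11 and 2.97) and Mapk11, which encodes p38 beta, lower (-2.44 and -3.77). In the glycolysis list 1 of 16 genes was higher, Gpi1 (1.55 and 1.35), and 1 lower, Hk1 (-1.02 and -2.07).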
